A study of Mus musculus with 18 samples.

Results

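Mouse hepatic stellate cells (HSC) and intrahepatic cholangiocyte organoids (ICO) were each kept alone in Matrigel for 7 days, and their transcriptomes were compared gene by gene. The comparison used 6 of the 18 libraries of the study, chosen by their labels: 3 of HSC alone and 3 of ICO alone. HSC came from livers of healthy wild-type mice and were taken as quiescent cells at isolation, and the organoids carried the red fluorescent tag dTomato, per the series design text. All of these cultures were grown in the same mixture of serum-containing DMEM and supplemented Advanced DMEM/F12 with gastrin, EGF, FGF10, HGF, RSPO3 and nicotinamide, and cells were sorted before RNA was taken. The labels give no sorting gate for the cultures kept alone and no sex or age, and whether the 3 libraries within each group represent different animals or organoid lines is not stated. The p-values therefore measure only the spread between these libraries, which may be technical. HSC at day 0 and HSC after 7 days on plastic, 3 libraries each, are cited as reference levels of cells that were not kept with organoids, and co-culture libraries only helped to estimate the spread.

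Stellate cells are the pericytes of the liver sinusoid. In the healthy organ they store retinyl esters, and after injury they turn into contractile cells that deposit collagen. Cholangiocytes line the bile ducts as a polarized epithelium, with keratins, tight junctions and channels that move water and bicarbonate, and in Matrigel they grow as hollow organoids kept by growth factor and Wnt signals. Around the ducts, mesenchymal cells and epithelium exchange growth factors, Wnt and Notch ligands and matrix proteins.

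Total counts were between 11036973 and 15973353 per library, and 19114 to 22550 genes had at least 1 count. Xist was present in all 6 libraries at 201 to 344 CPM (counts scaled to library size), and Ddx3y and Eif2s3y of the Y chromosome were at most 0.392 CPM. Before the results, one property of the HSC libraries has to be given. A set of 35 genes averaged at least 100 CPM in ICO and had under 1 CPM in every fresh or plastic-grown HSC library. It stood at a median of 24% of the ICO mean in HSC replicate 1, 11.9% in replicate 2 and 1.35% in replicate 3. In fresh and plastic-grown HSC this median did not exceed 0.122%, a low value that the choice of these genes fixed in advance. The stellate genes were abundant in all 3 HSC libraries, so replicates 1 and 2 held both programs. Replicate 3 held a small share of epithelial transcripts as well, and differences from it alone include that share. In bulk RNA, epithelial cells present in a library and epithelial genes transcribed by the stellate cells cannot be told apart. Levels of the leading epithelial genes are therefore given by library, and their differences also from HSC replicate 3 alone. Where a gene higher in ICO has only a range and one fitted difference, that difference includes the mixed libraries. In the fit of HSC replicate 3 alone, this library is assumed to vary like the other groups.

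Of 16233 genes tested, 56.7% differed between the cell types at an adjusted p under 0.05: 5018, or 30.9%, were higher in HSC and 4194, or 25.8%, in ICO. Without HSC replicate 1 the counts were 4967 and 4706, and from HSC replicate 3 alone they were 3916 and 3990. Over all genes tested the median fitted difference, HSC minus ICO, was 0.09 on the log2 scale. All fitted differences below have this direction, with positive values for genes higher in HSC, and are log2 values ± standard error (SE). For counts of list members below, the reference is 30.9% higher in HSC and 25.8% higher in ICO, over all genes tested.

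All 20 stellate and pericyte markers were higher in HSC, against 30.9% of all genes tested. Their median difference was 9.47, and 9.38 with the one gene that had no count in ICO set at its lower bound. Dcn (ENSMUSG00000019929), the collagen-binding proteoglycan decorin, had 15070, 20760 and 27730 CPM in HSC replicates 1 to 3 and 28.9, 34.9 and 0 CPM in ICO replicates 1 to 3. The groups lay far apart, and ICO replicate 3 held no Dcn count at all (10.04 ± 1.45, adjusted p = 0.000364). Reln, the secreted glycoprotein reelin, had 1465, 2388 and 2340 CPM in HSC and 3.28, 4.67 and 0.587 CPM in ICO (9.57 ± 0.59, adjusted p = 5.22e-07). Lrat, the enzyme that esterifies retinol for storage, had 377, 545 and 632 CPM in HSC and at most 1.32 CPM in ICO. Both were lowest in HSC replicate 1, the library with the most epithelial transcripts.

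The other defining markers of the cell type followed. Pdgfrb, the receptor for PDGF-B on pericytes, had 192, 208 and 256 CPM in HSC and 0.0779 to 2.21 CPM in ICO (7.89 ± 0.73). Ngfr, the low-affinity neurotrophin receptor, had 280 to 500 CPM against 0.252 to 0.713 CPM, and the muscle-type intermediate filament gene Des had 82 to 104 CPM against 0.168 to 0.779 CPM. No member overlapped between the groups among these. Gfap, a glial filament gene that also marks quiescent stellate cells, was lower than the others in HSC, at 9.9 to 14.3 CPM, and was 0.142 to 0.419 CPM in ICO. Ecm1, a secreted matrix protein, was the member with the highest level in ICO as well, with 6652, 10750 and 13540 CPM in HSC and 205 to 225 CPM in ICO (5.67 ± 0.27, adjusted p = 5.66e-09).

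**Figure D1:**
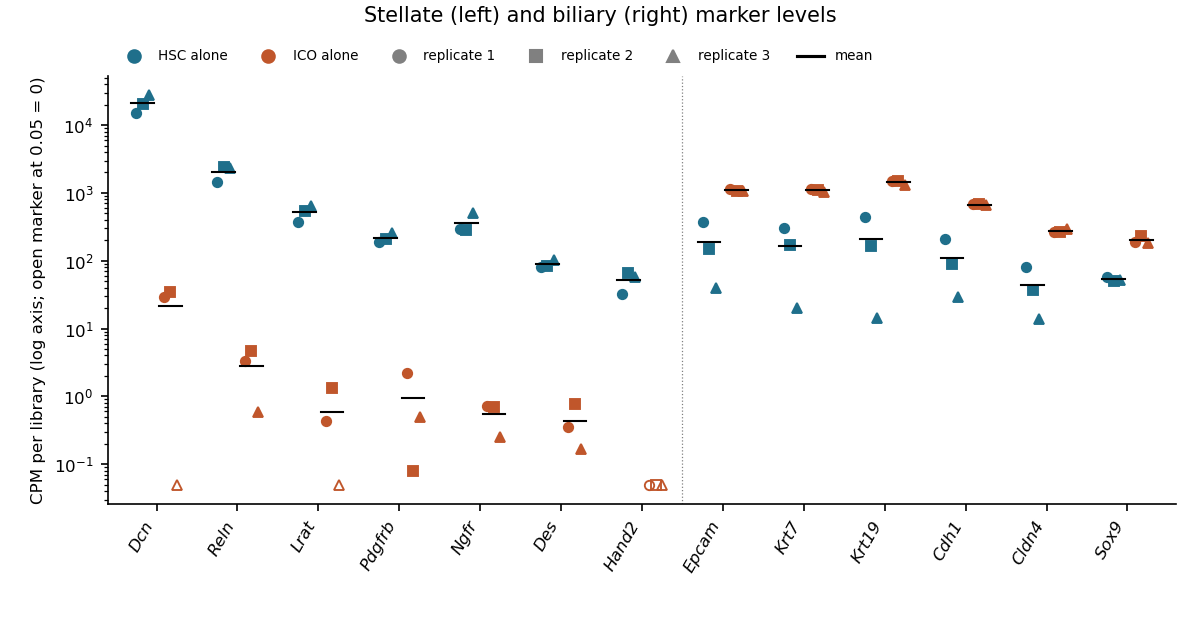
Level of 7 stellate and 6 biliary markers in each library of HSC alone (blue) and ICO alone (orange), in CPM on a log axis, with a symbol for each replicate and a bar at the group mean; an open symbol at 0.05 stands for 0. Stellate genes were at most 34.9 CPM in every ICO library, whereas in HSC the biliary genes other than Sox9 were highest in replicate 1 and lowest in replicate 3.

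Among genes with at least 10 CPM in the higher group, the largest fitted differences toward HSC were mostly those of genes with no counts in any ICO library. Such fitted values are no bound, so their rank over genes with a few ICO counts is uncertain. Itga8, the integrin chain that binds nephronectin, had 95.7, 138 and 123 CPM in HSC and was at least 1538-fold higher than a floor of 3 counts over the ICO libraries. Lpar1, a receptor for lysophosphatidic acid, had 62.6 to 99.7 CPM and was at least 1127-fold higher by the same floor. Itih3, an inter-alpha-trypsin inhibitor chain, Lrrn3, the GABA receptor chain Gabra3, the proprotein convertase Pcsk5, the copper-dependent iron oxidase Heph and the succinate receptor Sucnr1 also had no count in ICO, with lower bounds between 463-fold and 1306-fold. Gucy1b1, the beta chain of the nitric oxide receptor guanylate cyclase, had 127 to 182 CPM in HSC and 1 count in all ICO libraries together. All of these genes were at or near 0 in the organoids and present in every HSC library.

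Of 35 mesenchymal and stellate transcription factor genes, 29 passed the filter on low counts, 24 were higher in HSC and 2 in ICO. The same 24 to 2 split was found without HSC replicate 1, and 24 to 3 from HSC replicate 3 alone. Hand2, a basic helix-loop-helix factor of lateral mesoderm, had 32.8, 65.8 and 57 CPM in HSC and no count in ICO, at least 671-fold higher. Tcf21, a helix-loop-helix factor of stellate cells and other mesenchyme, had 471, 660 and 770 CPM in HSC and 1.07, 1.56 and 0 CPM in ICO (9.54 ± 0.62). Tbx20, a T-box factor, had 168 to 274 CPM in HSC and at most 0.857 CPM in ICO. These genes were on in each HSC library and close to absent from ICO. Nr2f2, a nuclear receptor of mesenchyme (154 to 237 against 24.4 to 33.3 CPM), and Tcf4 (137 to 200 against 14.9 to 17 CPM) were higher in HSC but present in both. The exceptions were Tbx3, with 0.728 to 3.14 CPM in HSC and 15 to 20.2 CPM in ICO, and the forkhead gene Foxf2, with 0.168 to 1.32 and 4.13 to 5.45 CPM.

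The promoters of 2 regulators that were higher in HSC and 2 epithelial genes that were higher in ICO are shown from RefSeq on build GRCm38.p6, as the 250 bases before and 50 bases after the annotated start. The counts were made on another build, so the sequences serve only to show the letters. Capitals mark a match on either strand to AGATAA (recognized by GATA factors), to CAGCTG (an E-box, recognized by helix-loop-helix factors) or to TGANTCA (the AP-1 motif); none of the marked matches overlap.
Hand2 (chr8:57320733-57321032, plus strand): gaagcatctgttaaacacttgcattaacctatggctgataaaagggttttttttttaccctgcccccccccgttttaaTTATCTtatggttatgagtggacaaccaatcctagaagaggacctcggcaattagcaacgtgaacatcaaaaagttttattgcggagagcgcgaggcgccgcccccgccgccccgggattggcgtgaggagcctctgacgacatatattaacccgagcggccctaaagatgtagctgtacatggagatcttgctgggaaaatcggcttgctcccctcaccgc
Tcf21 (chr10:22820094-22820393, minus strand): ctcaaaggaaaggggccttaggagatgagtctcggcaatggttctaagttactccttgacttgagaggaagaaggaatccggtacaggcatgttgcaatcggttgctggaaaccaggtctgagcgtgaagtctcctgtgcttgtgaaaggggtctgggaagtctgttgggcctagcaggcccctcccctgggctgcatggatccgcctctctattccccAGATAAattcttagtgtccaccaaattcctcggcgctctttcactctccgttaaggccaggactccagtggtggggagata
Cldn4 (chr5:134946885-134947184, minus strand): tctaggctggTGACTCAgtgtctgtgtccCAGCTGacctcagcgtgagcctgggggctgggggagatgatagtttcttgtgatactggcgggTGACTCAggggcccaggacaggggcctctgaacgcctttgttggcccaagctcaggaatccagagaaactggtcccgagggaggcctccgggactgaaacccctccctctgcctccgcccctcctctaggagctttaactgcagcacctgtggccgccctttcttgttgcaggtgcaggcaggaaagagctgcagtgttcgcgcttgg
Krt8 (chr15:102004293-102004592, minus strand): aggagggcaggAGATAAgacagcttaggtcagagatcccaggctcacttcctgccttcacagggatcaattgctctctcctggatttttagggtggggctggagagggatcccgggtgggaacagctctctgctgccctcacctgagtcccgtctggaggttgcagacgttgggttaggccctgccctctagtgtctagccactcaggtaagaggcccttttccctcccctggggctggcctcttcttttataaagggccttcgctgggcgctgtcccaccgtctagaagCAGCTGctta
Hand2 and Tcf21 each held 1 match, both to the GATA motif, Cldn4 held an E-box and 2 AP-1 matches, and Krt8 held 1 GATA match and 1 E-box. Such matches were common. Among 11688 tested genes with a promoter in the table, AGATAA was found for 8.22% of all genes, 7.83% of those higher in HSC and 8.35% of those higher in ICO. CAGCTG was found for 18%, 21% and 17.1%, and TGANTCA for 6.94%, 6.89% and 8.82%. Gata6, which encodes a factor that binds the first motif, had 33, 58.4 and 40.4 CPM in HSC and 8.33 to 11.9 CPM in ICO (2.24 ± 0.26).

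Interstitial collagens were a further part of the stellate program: 13 of 15 tested genes were higher in HSC and 1 in ICO, also without HSC replicate 1 and from HSC replicate 3 alone. Col3a1 had 614, 588 and 750 CPM in HSC and at most 0.428 CPM in ICO (11.66 ± 0.69). Col1a2 had 239 to 321 CPM against at most 0.623 CPM, and Col6a1, a chain of the beaded collagen VI, had 583 to 944 CPM against 4.95 to 11.8 CPM. The groups lay apart by far more than the spread of the libraries. Col12a1, a fibril-associated collagen, was the one member higher in ICO, with 0.527 to 1.67 CPM in HSC and 5.84 to 7.62 CPM in ICO (-2.66 ± 0.32). For elastic fibres and proteoglycans the counts were 17 and 1 of 24 tested. Lum, the proteoglycan lumican, had 5966, 7759 and 10310 CPM in HSC and 0.168 to 12.5 CPM in ICO, and Eln, the elastin gene, 20.8 to 30.3 CPM and at most 0.0779 CPM. The exception was Fbln2, a fibulin of basement membranes, with 119, 74 and 19.9 CPM in HSC and 407 to 581 CPM in ICO (-2.73 ± 0.5, and -4.62 from HSC replicate 3 alone). Hspg2, the heparan sulfate proteoglycan perlecan, was not called, at 51.1 to 56.9 and 40 to 55.9 CPM.

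Of the basement membrane, the sheet on which epithelia rest, 8 of the 21 genes tested had higher levels in HSC and 11 in ICO, beside 30.9% and 25.8% of all genes tested. HSC were higher for Lamb1 (322, 420 and 488 CPM against 45.7 to 57.3 CPM), for Nid1, which links laminin to collagen IV (230 to 278 against 1.4 to 5.7 CPM), and for the collagen IV chains Col4a1 (238 to 316 against 114 to 125 CPM) and Col4a2 (138 to 177 against 66.8 to 72 CPM). ICO were higher for the epithelial laminin chain Lama5, which had 71.1, 45.1 and 7.95 CPM in HSC and 229 to 259 CPM in ICO. Agrin, encoded by Agrn, and collagen XVIII, encoded by Col18a1, were also higher in ICO (55 to 137 against 328 to 352 CPM, and 15.3 to 70.8 against 191 to 249 CPM). The HSC values of these ICO-high genes were ordered as the epithelial transcripts were, whereas those of Lamb1 and Nid1 were not. From HSC replicate 3 alone the Lama5 difference was -4.9 rather than -2.47.

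Genes for contraction and myofibroblast activation included 10 of 20 that were higher in HSC, 6 that were higher in ICO and 4 not called, beside 30.9% and 25.8% of all genes tested in the respective directions. Acta2, the smooth muscle actin of activated stellate cells, had 68.4, 0.462 and 3.75 CPM in HSC and 0.285 to 0.545 CPM in ICO, far under the 3952 to 5288 CPM of HSC on plastic. HSC replicate 1 carried most of the fitted difference of 5.89 ± 1.68 (adjusted p = 0.0145). Without this library the difference was 2.41 (adjusted p = 0.0464), and the call was lost without ICO replicate 1 (adjusted p = 0.053). The fit of only the 6 libraries and the fit with DESeq2 gave no adjusted p for Acta2. Tnc, the matrix glycoprotein tenascin C, was also highest in HSC replicate 1, with 50.1, 7.58 and 6.38 CPM in HSC and 1.64 to 2.94 CPM in ICO. Its difference was 3.19 ± 0.81, and 1.57 without HSC replicate 1. Mylk, the myosin light chain kinase, was more even, with 144, 167 and 182 CPM against 18.2 to 24.2 CPM (3.04 ± 0.17). Cald1, the actin-binding protein caldesmon, was also higher in HSC (1.24 ± 0.18). Csrp1, a LIM-domain protein of actin filaments, had 256 to 270 CPM in HSC and 397 to 431 CPM in ICO (-0.56 ± 0.11), and Vcl, the adhesion protein vinculin, was not called (-0.1 ± 0.11). Without HSC replicate 1 the list held 8 genes higher in HSC and 7 in ICO.

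The biliary program was higher in ICO for 22 of 24 markers, against 25.8% of all genes tested, and in HSC for none. The median difference was -2.42, -3.48 without HSC replicate 1 and -4.68 from HSC replicate 3 alone, and the count was 22 in each of these fits and 20 after the organoid share was subtracted from the HSC counts. Epcam (ENSMUSG00000045394), an epithelial adhesion molecule, had 374, 149 and 39.5 CPM in HSC and 1148, 1049 and 1068 CPM in ICO. Krt7 had 301, 168 and 20.1 CPM in HSC and 1027 to 1148 CPM in ICO, and the claudin gene Cldn4 had 81.9, 37 and 13.9 CPM and 264 to 296 CPM. Every one of these was highest in HSC replicate 1 and lowest in replicate 3, and the groups did not overlap. At day 0 and on plastic, Epcam was at most 0.721 CPM.

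The size of these differences depended on which HSC libraries were used. The fitted difference of Epcam was -2.47 ± 0.67 (adjusted p = 0.0114), -3.47 without HSC replicate 1 and -4.76 from HSC replicate 3 alone. For Krt7 the values were -2.66, -3.47 and -5.73, for Krt8 -2.72, -3.68 and -5.26, and for Cdh1, the epithelial cadherin, -2.56, -3.44 and -4.51. Direction did not depend on it. The Krt7 call was lost only when the fit held just the 6 libraries (adjusted p = 0.0599), and that of the related keratin gene Krt19 in 7 fits, as given at the end. Muc1, a surface mucin, and Cftr, the chloride channel of bile secretion, were the members not called. Muc1 had 78.8, 3.3 and 9.46 CPM in HSC and 7.63 to 10.6 CPM in ICO (1.78 ± 0.89), and Cftr had 0.593 to 1.94 CPM and 2 to 2.73 CPM. Muc1 was called higher in HSC without replicate 2 or 3 (adjusted p = 0.0152 and 0.0445).

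Sox9 (ENSMUSG00000000567), a transcription factor of bile duct cells and liver progenitors, did not follow the order of the other markers. It had 58, 50.6 and 52.6 CPM in HSC replicates 1 to 3 and 186, 229 and 183 CPM in ICO (-1.81 ± 0.35, adjusted p = 0.00151). HSC replicate 3 thus stood at 26.4% of the ICO mean for Sox9 and at 3.63% for Epcam, 0.986% for Krt19 and 4.31% for Cdh1. Sox9 was at most 1.57 CPM at day 0 and on plastic. Spp1, the secreted phosphoprotein osteopontin, also kept 11.7% of the ICO mean in HSC replicate 3, with 3344, 1217 and 1052 CPM in HSC and 8053 to 9948 CPM in ICO. Unlike Sox9, it reached 341 CPM on plastic.

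Junction and polarity genes of epithelia gave the same picture, with 26 of 31 higher in ICO, 28 without HSC replicate 1 and 29 from HSC replicate 3 alone, and none higher in HSC. Cldn2, a claudin that forms a cation pore, had 272, 138 and 34.8 CPM in HSC and 1237 to 1311 CPM in ICO (-3.04 ± 0.68, and -5.18 from HSC replicate 3 alone). F11r, a junctional adhesion molecule, had 150, 70 and 49.9 CPM in HSC and 350 to 377 CPM in ICO (-1.96 ± 0.38, and -2.85). Jup, plakoglobin of both desmosomes and adherens junctions, was not called, at 227 to 344 CPM in HSC and 204 to 264 CPM in ICO. Cadherins and adhesion genes often used for mesenchyme were mixed, with 9 of 17 higher in HSC and 5 in ICO. N-cadherin, encoded by Cdh2, had 130, 136 and 171 CPM in HSC and 20.5 to 28.1 CPM in ICO (2.61 ± 0.21), and Vcam1 had 1029 to 1568 CPM against 215 to 337 CPM. Cdh11 was also higher in HSC, by less (154 to 168 against 96.3 to 110 CPM, 0.73 ± 0.14), and Ncam1 was higher in ICO, with 10.4 to 24.3 CPM in HSC and 105 to 128 CPM in ICO (-2.5 ± 0.26). Thy1, a marker of portal fibroblasts, was at most 0.396 CPM in all 6 libraries.

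Of 16 tested intermediate filament genes, 4 were higher in HSC and 11 in ICO, beside 30.9% and 25.8% of all genes tested. Vim, the filament of mesenchymal cells, had 215, 220 and 271 CPM in HSC and 21.3 to 32.9 CPM in ICO (3.2 ± 0.22), and Synm, which encodes a partner of desmin, had 12.4 to 30.6 CPM and 0.503 to 1.17 CPM. Krt8 and Krt18, the keratin pair of simple epithelia, were the most abundant in ICO, with 5845 to 7135 CPM and 4679 to 5553 CPM. In HSC they had 1894, 821 and 171 CPM and 1169, 601 and 104 CPM.

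Epithelial transcription factors were higher in ICO for 21 of 26 tested genes, against 25.8% of all genes tested. The count was 23 without HSC replicate 1, and Gata6 was the member higher in HSC. Klf5 had 78.5, 41.9 and 3.86 CPM in HSC and 315 to 362 CPM in ICO (-2.92 ± 0.83, and -6.39 from HSC replicate 3 alone). Hnf4a, a regulator shared by hepatocytes and progenitors, had 42.7, 18.3 and 5.82 CPM in HSC and 101 to 128 CPM in ICO (-2.26 ± 0.59, and -4.23). The ETS factor genes Elf3 and Ehf had 256 to 317 CPM and 375 to 420 CPM in ICO. Both calls needed HSC replicate 2 (adjusted p = 0.0921 and 0.0799 without it), and that of Elf3 also each ICO library (0.0513 to 0.0609 without one of them). Of genes tied to progenitors and organoid growth, 19 of 21 were higher in ICO. Clu, the secreted chaperone clusterin, was the most abundant of them, with 5382, 2458 and 1179 CPM in HSC and 19610 to 20130 CPM in ICO (-2.65 ± 0.52, and -4.05 from HSC replicate 3 alone). Lgr5, a receptor of R-spondins that marks cycling progenitors, had 13.3, 9.36 and 0.28 CPM in HSC and 78 to 94 CPM in ICO (-3.43 ± 0.9, and -8.2). Cd44, a hyaluronan receptor, had 321, 224 and 69 CPM and 1450 to 1776 CPM (-2.93 ± 0.48, and -4.56).

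Genes of bile secretion were higher in ICO for 15 of 20 tested and in HSC for 2, beside 25.8% and 30.9% of all genes tested. Ano1, a calcium-activated chloride channel, had 102, 66.6 and 27.2 CPM in HSC and 303 to 332 CPM in ICO (-2.22 ± 0.44, and -3.54 from HSC replicate 3 alone). Aqp1, a water channel, had 5.95, 6.33 and 0.28 CPM in HSC and 63.2 to 72.8 CPM in ICO, and was among the largest differences toward ICO (-3.97 ± 0.94, and -7.87 from HSC replicate 3 alone). Vipr1, a receptor for vasoactive intestinal peptide, was listed with secretion but stood in HSC, with 453 to 709 CPM against at most 3.89 CPM. Other large differences toward ICO were those of Olfm4, a secreted glycoprotein of intestinal stem cells, the secreted protease inhibitor Spink4, the acute-phase protein Orm1 and the ephrin gene Efna3, between -3.84 and -4.23. Ugt1a8, Ugt1a6b, Eif1ad7 and Sprr2a1 belonged to this group as well, but share sequence with close relatives, so their counts are uncertain. None of these genes exceeded 0.392 CPM in HSC replicate 3.

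**Figure D2:**
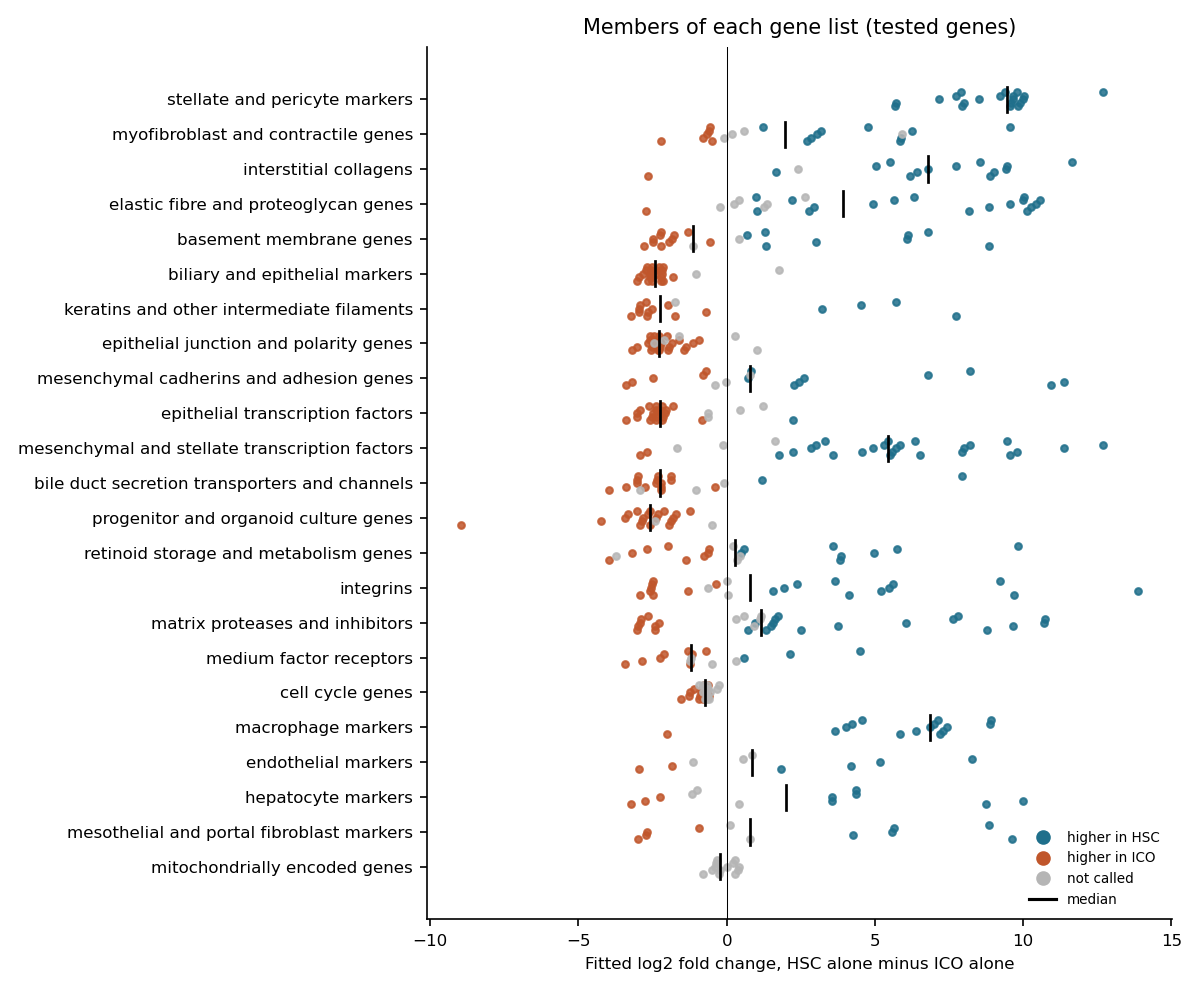
Fitted log2 difference, HSC alone minus ICO alone, of each tested member of 23 gene lists; each point is a gene, coloured by call, and black bars are list medians. Stellate, collagen and macrophage lists lay to the right and biliary, junction and epithelial factor lists to the left; fitted values of genes with no count in one group depend on the prior count and are no bound.

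Retinoid genes held 8 of 20 tested that were higher in HSC and 8 in ICO, beside 30.9% and 25.8% of all genes tested. Besides Lrat, HSC were higher for the retinal dehydrogenase gene Aldh1a1 (66.9 to 75.9 against 0.623 to 2.27 CPM), for the retinoid receptor gene Rxra (101 to 151 against 10.4 to 12.8 CPM) and, by little, for the lipid droplet coat Plin2 (266 to 329 against 200 to 254 CPM, 0.49 ± 0.13). ICO were higher for Rdh10, which makes retinal from retinol, with 58.2 to 88.5 CPM in HSC and 276 to 334 CPM in ICO (-1.99 ± 0.17). Dhrs3, which works in the opposite sense, was also higher in ICO (152 to 196 against 286 to 310 CPM). The Plin2 call was lost without ICO replicate 3 (adjusted p = 0.0597).

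Cell-cycle genes were higher in ICO or not called: 16 of 30 were higher in ICO, against 25.8% of all genes tested, and none in HSC. HSC replicate 1 lowered this count, which was 28 without that library. Rrm2, a subunit of ribonucleotide reductase, had 59.7, 23.9 and 24.6 CPM in HSC and 102 to 119 CPM in ICO (-1.53 ± 0.31), and Pcna had 114, 73.5 and 79.6 CPM and 154 to 165 CPM (-0.75 ± 0.15). The summed level of the list was 1347 CPM in HSC replicate 1, 644.7 and 595.6 CPM in the other HSC libraries, and 1490 to 1745 CPM in ICO. Ccna2 and Ccnb1, the cyclins of S phase and mitosis, were not called in the fit of all libraries, and were higher in ICO without HSC replicate 1 (adjusted p = 0.000684 and 7.1e-05).

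Of the 29 proteases and inhibitors tested, 16 had the higher level in HSC and 8 in ICO, beside 30.9% and 25.8% of all genes tested. Mmp2, a gelatinase of mesenchyme, had 368, 472 and 704 CPM in HSC and 0.0839 to 1.48 CPM in ICO (9.65 ± 0.75), and the inhibitor Timp2 had 165 to 255 CPM against 72.9 to 84.4 CPM. In ICO, the inhibitor Timp3 was higher (130, 76.1 and 19.3 against 572 to 710 CPM), and so were the plasminogen activator Plat (17 to 69.1 against 248 to 276 CPM) and the urokinase receptor Plaur (24.2 to 90.7 against 263 to 368 CPM). Mmp7, a protease of secretory epithelia, was not called. It had 425, 17.8 and 45.4 CPM in HSC and 57.3 to 129 CPM in ICO, so that HSC replicate 1 lay above every ICO library. Timp1 was not called either, at 9.1 to 33.6 and 14.9 to 16.6 CPM.

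Transcripts of other liver cells were present beside the stellate genes. Of 15 tested macrophage markers, 14 were higher in HSC, against 30.9% of all genes tested, with a median difference of 6.85. Their summed level was 2829 to 3682 CPM in HSC and 536.1 to 560 CPM in ICO, most of the latter from Cd14. Lyz2, a lysozyme of myeloid cells, had 1978, 2012 and 2769 CPM in HSC, and Adgre1, the F4/80 antigen, 49.4 to 67.4 CPM against at most 0.356 CPM in ICO. C1qa, a complement subunit, had 31 to 32.9 CPM, whereas the Kupffer cell lectin Clec4f had at most 0.396 CPM, beside up to 248 CPM at day 0. Cd14 ran the other way, with 58.7 to 201 CPM in HSC and 496 to 547 CPM in ICO (-2 ± 0.39). Cd14 was highest in HSC replicate 1 and lowest in replicate 3, as the epithelial genes were, whereas Lyz2, Adgre1 and C1qa were not. Which HSC-high genes came from such cells was not tested.

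The endothelial genes Cdh5, Kdr and Stab2 and the defining lymphocyte genes were at or near 0. These endothelial genes were at most 0.132 CPM (Cdh5), 0.923 CPM (Kdr) and 1.23 CPM (Stab2) in all 6 libraries. Pecam1 was not called, at 1.09 to 2.31 CPM. The 9 endothelial markers tested held 4 with higher levels in HSC and 2 in ICO, beside 30.9% and 25.8% of all genes tested. Over the whole endothelial list the summed level was 96.13 to 134.6 CPM in HSC and 21.96 to 26.84 CPM in ICO, most of it from other members. At day 0 it was 2242 to 2267 CPM. Alb, the hepatocyte albumin gene, had 26.3, 23.3 and 20.8 CPM in HSC and 1.43 to 2.49 CPM in ICO, after up to 8917 CPM at day 0, and Cps1 was at most 0.198 CPM. Of 22 hepatocyte markers, 12 passed the filter, with a median difference of 1.99. Of these, 6 were higher in HSC and 3 in ICO, beside the same shares of all genes tested. Ahsg, the plasma protein fetuin-A, had 13.2, 6.72 and 4.2 CPM in HSC and no count in ICO, at least 104-fold higher. The summed level of the list was 510.8 to 1116 CPM in HSC and 5502 to 5988 CPM in ICO. Trf, the iron carrier transferrin, made up most of the ICO sum, with 764, 623 and 242 CPM in HSC and 5223 to 5713 CPM in ICO (-3.24 ± 0.44, and -4.47 from HSC replicate 3 alone). The T and B cell genes Cd3e and Cd79a were at most 0.392 CPM. Msln, a mesothelial gene, had 118, 89 and 7.67 CPM in HSC and 538 to 651 CPM in ICO, while Upk3b, another mesothelial gene, was at most 0.252 CPM. None of the 13 mitochondrially encoded genes was called.

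Ligands and receptors were then read across the cell types, with 213 literature pairs in 19 families. Both genes of 169 pairs passed the filter. In 20 pairs the ligand was higher in HSC and the receptor in ICO, in 37 pairs the reverse held, in 35 both genes were higher in HSC and in 27 both in ICO. The 20 pairs were made of 15 ligands and 17 receptors, and the 37 pairs of 32 ligands and 28 receptors, so pairs shared members and were not independent. Among the 130 ligands tested, HSC had the higher level for 34.6% and ICO for 47.7%. Among the 113 receptors tested the shares were 50.4% and 31.9%, beside 30.9% and 25.8% of all genes. From HSC replicate 3 alone the ligand shares were 29.9% and 46% and the receptor shares 44.8% and 31.9%. RNA levels do not say whether a ligand was secreted or a receptor was at the surface. The HSC libraries also held macrophage transcripts, and which of their cells a ligand or receptor came from was not tested.

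**Figure D3:**
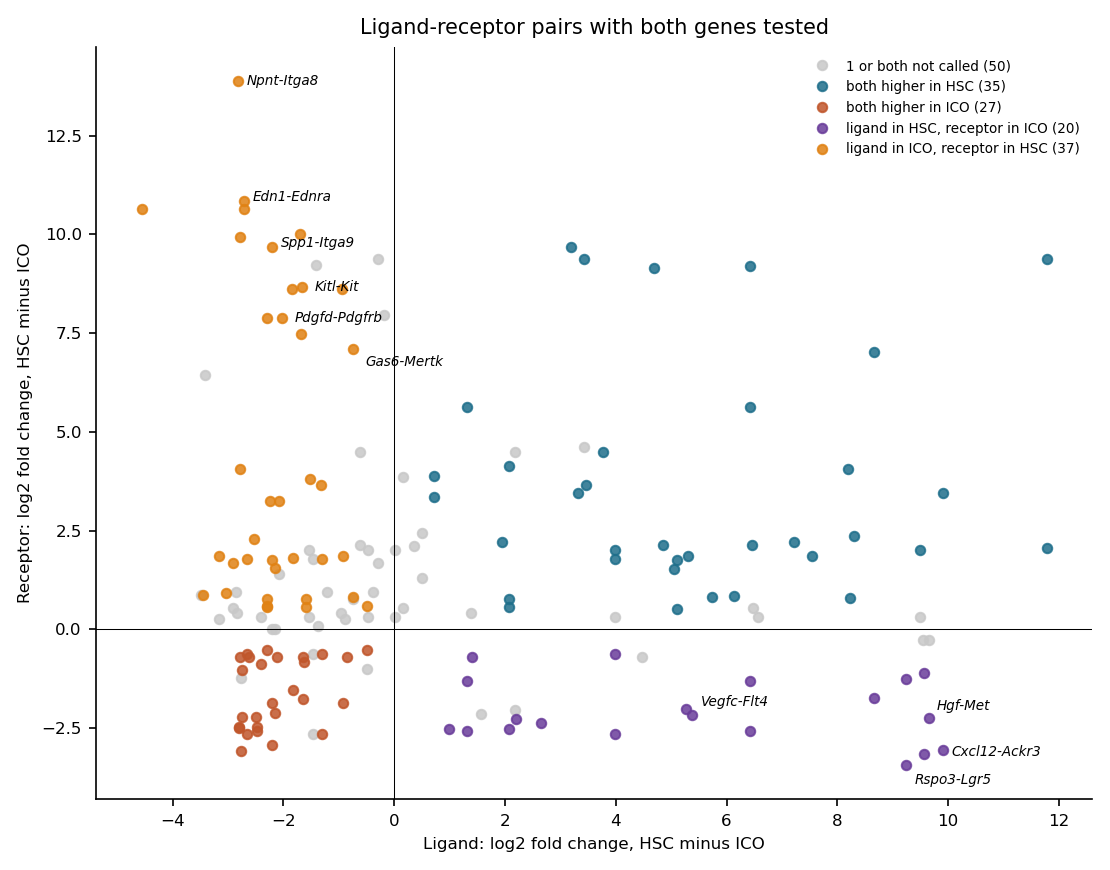
Each point is one of 169 ligand-receptor pairs, placed by the fitted log2 difference, HSC minus ICO, of its ligand (horizontal) and its receptor (vertical), and coloured by the calls of both genes. The lower right holds 20 pairs with the ligand in HSC and the receptor in ICO, the upper left 37 pairs of the opposite kind; fitted values of genes without counts in one group, such as Itga8, are no bound.

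With the ligand higher in HSC and the receptor higher in ICO, the opposed pairs included growth factor and Wnt signals. Hgf, the ligand of the receptor tyrosine kinase Met, had 826, 884 and 1151 CPM in HSC and 1.35, 2.34 and 0 CPM in ICO (9.65 ± 0.93, adjusted p = 2.77e-05). Met had 7.09, 4.35 and 0.504 CPM in HSC and 18.9 to 21.1 CPM in ICO (-2.24 ± 0.65, and -5.24 from HSC replicate 3 alone). Hgf was thus high in HSC and nearly absent from ICO, and the receptor was lowest in the HSC library with the fewest epithelial transcripts. Rspo3, a secreted amplifier of Wnt signals, had 533, 791 and 848 CPM in HSC and at most 2.21 CPM in ICO (9.24 ± 0.72). Its receptors Lgr5 (-3.43 ± 0.9) and Lgr4 (-1.25 ± 0.34) were higher in ICO. Lgr4 was found in both, with 14.9 to 32.3 CPM in HSC and 52 to 58.5 CPM in ICO. Wnt4 had 23.8 to 41.4 CPM in HSC and 6.7 to 10.5 CPM in ICO, opposite the frizzled receptor gene Fzd6 (3.02 to 19.5 against 41 to 52.9 CPM).

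Further ligands that were higher in HSC faced receptors that were higher in ICO. Cxcl12, a chemokine, had 2671, 3612 and 4197 CPM in HSC and 0.168 to 6.08 CPM in ICO, and its scavenger receptor Ackr3 had 2.52 to 3.08 CPM in HSC and 23.2 to 26.9 CPM in ICO (-3.05 ± 0.27). Ackr3 was even over the HSC libraries, whereas Cxcr4, the other listed receptor of Cxcl12, was higher in HSC (3.45). Reln was paired with the lipoprotein receptor gene Vldlr, which had 10, 5.34 and 0.84 CPM in HSC and 44.5 to 55.9 CPM in ICO (-3.15 ± 0.57). Vegfc, a lymphatic growth factor, had 8.22 to 10.9 CPM in HSC and at most 0.311 CPM in ICO, and its receptor Flt4 had 1.58 to 2.88 CPM and 8.18 to 11.2 CPM. The cytokine gene Tnfsf12 (5.27 ± 0.61) faced its receptor Tnfrsf12a, with 16.9 to 97.1 CPM in HSC and 210 to 258 CPM in ICO. Mdk, the heparin-binding factor midkine, had 2.54 to 4.37 CPM in HSC and no count in ICO, at least 41.7-fold higher. It stood opposite the proteoglycan Sdc4 (389 to 607 against 1582 to 1709 CPM), whereas Lrp1, its other listed receptor, was higher in HSC (7.03). Dll4, a Notch ligand, was low and uneven, with 2.34, 5.47 and 1.68 CPM in HSC, and leaving out HSC replicate 2 or ICO replicate 3 ended its call (adjusted p = 0.0584 and 0.0504), as did the use of HSC replicate 3 alone (0.139). Collagen genes Col1a1 and Col4a1 of HSC stood opposite the receptors Itga2 (4.26 to 33.7 against 102 to 116 CPM) and Ddr1 (35.7 to 53.2 against 108 to 115 CPM). Their partners Itga1 and Ddr2 were on the HSC side, with 316 to 443 against 7.17 to 9.48 CPM and 126 to 202 against at most 0.623 CPM.

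In the opposite direction, all 4 tested PDGF pairs had the ligand higher in ICO and the receptor higher in HSC. Pdgfra had 345, 397 and 543 CPM in HSC and 0.252 to 1.64 CPM in ICO (8.61 ± 0.56), next to Pdgfrb given above. Pdgfa had 17.1, 12.4 and 11.8 CPM in HSC and 23.7 to 29.9 CPM in ICO (-0.94 ± 0.2), and Pdgfd had 11.5 to 23.2 CPM and 55.2 to 83.8 CPM (-2.02 ± 0.43). The receptors were almost absent from organoids, whereas the ligands differed by degree. The endothelin receptor gene Ednra had 241, 308 and 418 CPM in HSC and 0 to 0.467 CPM in ICO (10.64 ± 0.55), and its ligand Edn1 had 15.2, 10.3 and 0.336 CPM in HSC and 40 to 80.5 CPM in ICO (-2.71 ± 0.81). The Edn1 call was lost without ICO replicate 2 (adjusted p = 0.0536) and in the fit of 6 libraries (0.0791). Kitl, the ligand of the receptor Kit, had 18.8 to 47.5 CPM in HSC and 95.6 to 122 CPM in ICO, while Kit had 15.8 to 27.2 CPM in HSC and at most 0.0839 CPM in ICO (8.67 ± 0.7).

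Some TGF-beta, Wnt and Notch ligands of organoids also met receptors that were higher in HSC. Of 6 listed ligands of the TGF-beta family, 5 were higher in ICO and 1, Tgfb1, was higher in HSC (2.07). Tgfb3 had 42, 10.7 and 7.11 CPM in HSC and 96.7 to 108 CPM in ICO (-2.29 ± 0.54), and Inhba, a chain of activin, had 5.1 to 14.6 CPM and 33.7 to 47.7 CPM (-1.83 ± 0.33). The receptors differed less: Tgfbr2 had 183 to 211 CPM in HSC and 120 to 126 CPM in ICO (0.77 ± 0.15), Tgfbr1 62.8 to 80.4 and 45 to 54.4 CPM (0.56 ± 0.14), and Acvr2a 74.7 to 123 and 24.8 to 35.7 CPM (1.8 ± 0.19). The Tgfbr1 call was lost in the fit of all 18 libraries (adjusted p = 0.0728). Acvr1b, another receptor paired with Inhba, was higher in ICO (-1.54). Wnt7b was the most abundant ICO-high ligand of its family, with 126, 66.1 and 2.69 CPM in HSC and 498 to 606 CPM in ICO (-3.03 ± 0.95, and -7.67 from HSC replicate 3 alone), and the fit without HSC replicate 2 made no call (adjusted p = 0.0658). It faced Fzd1 (65 to 91.3 against 38.2 to 46.8 CPM). Jag1, the Notch ligand of bile duct formation, had 25.2 to 36.8 CPM in HSC and 71.1 to 79.9 CPM in ICO (-1.3 ± 0.17). Notch1 was higher in HSC (64.3 to 89 against 20.5 to 29.9 CPM). Notch2 (52.3 to 59.1 against 85.4 to 95.5 CPM) and Notch3 (-2.65) were higher in ICO.

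Of the interleukin-6 family, 4 pairs had the ligand in ICO and the receptor in HSC. Lif, a cytokine that signals through Lifr, had 8.89, 3.43 and 3.02 CPM in HSC and 19.3 to 28.2 CPM in ICO (-2.08 ± 0.35), and Lifr had 240 to 326 CPM in HSC and 30.1 to 31 CPM in ICO (3.24 ± 0.17). Clcf1 had 12.9 to 28.4 and 61.1 to 67.1 CPM, and its receptor Cntfr had 1.07 to 1.79 CPM in HSC and no count in ICO, at least 18-fold higher. Il11ra1 was clearly on the HSC side (130 to 160 against 9.81 to 13.7 CPM), but its ligand Il11 was low, at 2.43 to 6.34 CPM in ICO, with no call without HSC replicate 2 or 3 or ICO replicate 1 (adjusted p = 0.0677, 0.0609 and 0.0794). Among guidance cues, Sema3c had 55.8, 39.3 and 1.96 CPM in HSC and 298 to 317 CPM in ICO, opposite Nrp1 (94.9 to 121 against 27.4 to 34.8 CPM). Ephb4, a receptor of ephrin-B ligands, was higher in HSC by 0.59 ± 0.13 and its ligand Efnb2 in ICO, with 2.13 to 7.36 CPM in HSC and 23.2 to 26.5 CPM in ICO. Gas6, the ligand of Axl and Mertk, had 256 to 417 CPM in HSC and 533 to 576 CPM in ICO. Its call (adjusted p = 0.0452) was lost without HSC replicate 2 or 3 or any ICO replicate (0.07 to 0.138), and that of Axl (0.0351) without HSC replicate 1 or 3 or ICO replicate 2 or 3 (0.0599 to 0.148). Mertk, by contrast, had 28.4 to 34 CPM in HSC and at most 0.587 CPM in ICO (7.1 ± 0.78).

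Matrix ligands of organoids completed this direction. Fn1, fibronectin, had 457, 320 and 176 CPM in HSC and 1435 to 1575 CPM in ICO (-2.16 ± 0.26), and its receptor chain Itga5 had 23.1 to 38.2 CPM in HSC and 8.8 to 13.2 CPM in ICO (1.56 ± 0.25). Npnt, nephronectin, had 26.3, 15.7 and 0.448 CPM in HSC and 82.3 to 118 CPM in ICO, opposite Itga8. Npnt was no longer called in the fit without HSC replicate 2 (adjusted p = 0.059) and in the fit of 6 libraries (0.084). Itga9, a receptor for osteopontin and tenascin C, had 38.5 to 52.4 CPM in HSC and at most 0.142 CPM in ICO (9.69 ± 0.67). Over all integrins and matrix receptors, 11 of the 22 tested had higher levels in HSC and 8 had higher levels in ICO, beside 30.9% and 25.8% of all genes tested. The laminin receptor chains Itga3 and Itgb4 stood in ICO with the ligand Lama5 (242 to 331 and 118 to 147 CPM in ICO). The shared chains Itgb1 and Itgav were not called (0.04 ± 0.13 and 0.01 ± 0.12), at 597 to 741 CPM and 89 to 119 CPM over all 6 libraries.

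In families without an opposed pair, a pair had both partners called in the same cell type, only 1 partner called, or none. In the FGF family, both partners of the called pairs were higher in HSC. Fgf2 had 9.76 to 13.6 CPM there and 0.503 to 1.14 CPM in ICO, Fgf7 1.4 to 3.64 CPM and at most 0.168 CPM, and their receptors Fgfr1 (65.1 to 88.9 against 1.17 to 4.78 CPM) and Fgfr2 (443, 469 and 559 against 106 to 137 CPM) were higher in HSC too. Fgf18, by contrast, was low and higher in ICO, with 0.401, 0.198 and 0 CPM in HSC and 1.21 to 1.59 CPM in ICO (-2.76 ± 0.73), and Fgfr3 and Fgfr4 are given with the medium receptors. Of the BMP ligands, Gdf2 had 588, 689 and 893 CPM in HSC and at most 1.4 CPM in ICO, Bmp5 313 to 463 CPM and at most 1.17 CPM, and Bmp10 19.7 to 29.7 CPM and at most 0.0779 CPM. Gdf2 and Bmp10 act on the endothelial receptor Acvrl1, which was at 0.623 to 1.93 CPM in all 6 libraries and was not called. Bmpr2 was higher in HSC (78.2 to 108 against 22.3 to 27.3 CPM), whereas Bmpr1a was not called (0.31 ± 0.15). Igf1 stood in HSC (14 to 24.9 against at most 0.356 CPM) and its receptor Igf1r was not called (0.32 ± 0.19). Dhh, of the hedgehog ligands, had 2.47 to 4.98 CPM in HSC, and the receptor Ptch1 was not called, at 17 to 20.2 CPM over all 6 libraries.

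The medium already held factors for several receptors. Of 15 tested genes listed as medium receptors, 8 were higher in ICO and 3 in HSC, beside 25.8% and 30.9% of all genes tested. The list was broader than direct receptors of the added factors, with Erbb2 and Znrf3 among its members. Egfr had 59, 49.2 and 49.1 CPM in HSC and 95.4, 82.1 and 94.7 CPM in ICO (-0.71 ± 0.14), so the receptor for the added EGF was present in both. Erbb2 (27.2 to 59.6 against 91.5 to 105 CPM) and Znrf3, a membrane ligase that R-spondins antagonize (27.1 to 47.2 against 89.9 to 95.8 CPM), also had higher levels in ICO. Fgfr3 and Fgfr4 were not called with all libraries and were higher in ICO without HSC replicate 1 (adjusted p = 0.00641 and 0.0121). The gastrin receptor gene Cckbr had no count in any of the 6 libraries, and Cckar at most 0.112 CPM. Fgf10, whose product was in the medium, was low, with 0.602, 0 and 1.46 CPM in HSC and no count in ICO, and leaving out HSC replicate 3 ended its call (adjusted p = 0.0554), as did the replicate block (0.0658). Egf had 1.4 to 4.15 CPM in HSC and 0.701 to 1.43 CPM in ICO, and its call (adjusted p = 0.0416) was lost in 9 of the other fits, from HSC replicate 3 alone with an adjusted p of 0.629.

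**Figure D4:**
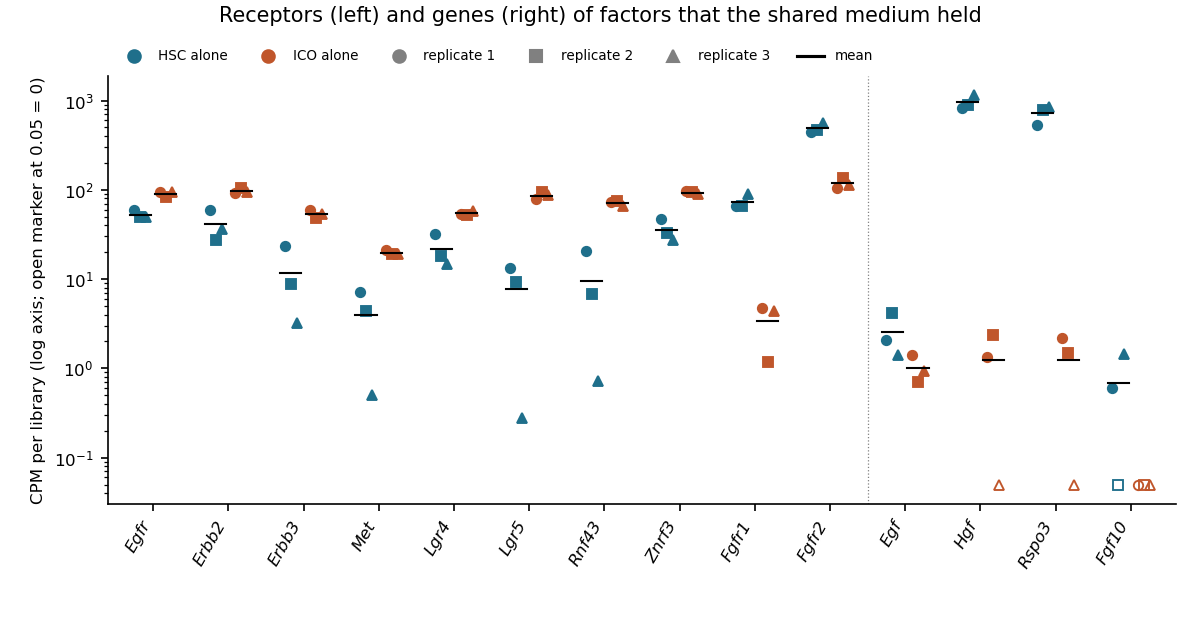
Level in each library, in CPM on a log axis, of 10 genes listed as receptors (left) and 4 ligand genes (right) of factors added to the medium of both cultures. Not all of the 10 are direct receptors of an added factor, Erbb2 and Znrf3 for example. Blue is HSC alone, orange ICO alone, bars are means, and an open symbol at 0.05 stands for 0. Hgf and Rspo3 were high in HSC and near 0 in ICO, and the listed genes Erbb3, Met, Lgr5 and Rnf43 were lowest in HSC replicate 3.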

How the data were processed

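Per the labels' protocols, bulk RNA of 18 mouse libraries was made into cDNA by Smart-seq2. The authors deposited estimated counts, not all whole, for 35667 genes. Build GRCm39, DESeq2 1.36.0 and kallisto 0.46.1 are listed in the submitters' processing notes without their roles; annotation and filters are not given there. The counts were rounded and compared in R 4.3.3 by the robust quasi-likelihood test of edgeR 4.0.16 (TMM, default low-count filter, Benjamini-Hochberg over all tested genes, threshold 0.05), with the 12 Matrigel libraries in 1 fit. CPM used TMM factors over all 18 libraries. The SE was taken as the size of the fitted difference over the root of its F statistic. Where a group had no count, the fold is a lower bound against 3 counts over the group, which covers counting error only.

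The 25 gene lists (488 genes), 213 ligand-receptor pairs and the rule for naming genes were chosen with earlier results of these data known. The rule took the 10 largest differences per direction with at least 10 CPM and no overlap, up to 4 called members per direction and 2 not called per list by level, all cell type markers and medium receptors, and up to 3 opposed pairs per family and direction. The organoid share is the median, over 35 genes, of the HSC level divided by the ICO mean. Subtracting it sets those genes by construction. Alternatives were RLE or no scaling, other filters, 6 or 18 libraries, DESeq2 1.42.0, a replicate block, leaving out each library, and the share subtracted. HSC replicate 3 alone was added after the data were seen. The test was checked on simulated data. Promoter sequences are RefSeq's. A few genes that met the naming rule are not reported here.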

Additional observations from a re-analysis of the deposited data

How the results depend on the processing

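The number of genes higher in HSC was 5018, and leaving out 1 library gave 4292 to 4967. The number higher in ICO was 4194, and leaving out 1 library gave 3427 to 4706. Pairs with the ligand in HSC and the receptor in ICO numbered 20, between 13 and 20 with 1 library left out (13 without HSC replicate 2), and 12 where a gene needed at least 10 CPM in at least 3 libraries, a filter that tests fewer genes. Pairs of the opposite kind numbered 37, and 29 to 37 with 1 library left out. The share of calls that were higher in HSC was 54.5%, and 46.4% with all 18 libraries in the fit (5434 genes higher in ICO). No called difference of a named gene changed sign in any alternative run. Of 240 named genes with a call, 39 lost it in at least 1 of the listed alternatives other than HSC replicate 3 alone, and 26 of those without a call gained one in some alternative. Krt19 (adjusted p = 0.0309) lost its call without the filter (0.0596), with only the 6 libraries (0.0981), with the share subtracted (0.0518), without HSC replicate 2 (0.0942) and without ICO replicate 1, 2 or 3 (0.0613, 0.0602 and 0.0536). Deviations of same-numbered libraries from their group means correlated between -0.03 and 0.02. Because epithelial transcripts were uneven over the HSC libraries, these values cannot decide whether the replicate numbers pair the samples. A replicate block gave 4772 genes higher in HSC and 4005 in ICO, and 19 and 36 opposed pairs. Depth limits the lowest genes: 3 counts correspond to between 0.168 and 0.252 CPM per library.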
